A study of Homo sapiens with 32 samples.

Results

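The comparison set IHK-44 directly against dCBP, compounds from a series on CBP/p300 inhibitors and degraders, in RH4 cells, a human alveolar rhabdomyosarcoma line. It used 8 RNA-seq libraries, 4 per compound, of the 20 RNA-seq libraries in the series. Cells received 1 of 2 doses of a compound, 100 nM or 1000 nM, and were taken after 2 h or 6 h, with 1 library for each combination. The libraries therefore form 4 pairs matched on dose and time, and the question was which genes or gene groups separated the compounds in all 4. DMSO and NT control libraries at 2 h and 6 h gave the level without a compound. A485 and JQAD libraries, treated at the same doses and times, served for comparison with other compounds. The labels do not expand NT, do not say which compounds are degraders, and do not say whether libraries came from separate cultures. A p-value below therefore reflects spread between the pairs of its own test, 4 unless stated, and that spread may be technical.

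CBP (CREBBP) and p300 (EP300) are lysine acetyltransferases that bind enhancers and promoters, acetylate histones and act as coactivators for many transcription factors. Alveolar rhabdomyosarcoma cells depend on a small circuit of such factors, in which the fusion protein PAX3-FOXO1 works with MYOD1, MYOG, MYCN and SOX8. An inhibitor blocks the enzyme while a degrader brings the protein to a ubiquitin ligase, so compounds against the same proteins can differ in how far and how fast they lower dependent genes.

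The 8 libraries held 13466631 to 16799327 counts over 18980 coding genes. Levels are given as CPM, that is, coding counts scaled to the same total in every library, and a ratio is the log2 of (CPM + 1) with IHK-44 over (CPM + 1) with dCBP in the same pair. Among muscle tumour genes, FGFR4 was at 544 to 772 CPM in the 8 libraries, while MYCN, lowered by both compounds, fell to near 1 CPM, as given below. Of 15 markers of blood, endothelial, epithelial, liver and glial cells only CD68 averaged at least 1 CPM. Reads outside the coding genes made up 8.20% to 9.58% of the IHK-44 libraries and 8.36% to 11.27% of the dCBP libraries, against 5.63% to 6.43% in the controls. The dCBP library at 100 nM and 6 h had the highest share of the 20 libraries, and the part of that share in the results below was not tested.

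No gene separated the compounds past the threshold when all 4 pairs were tested together. Of 12562 genes, 0 (0%) had an adjusted p under 0.05 by edgeR's quasi-likelihood test with the dose-time pair as a block, 924 had an unadjusted p under 0.05, and limma on log2(CPM + 1) also called 0. DESeq2, run on the same design, called 4 genes. The 95% interval of the difference lay inside 1.5-fold either way for 10154 genes (80.8%) and inside 2-fold for 11810 genes (94.0%). The same design could separate other compounds: it called 127 genes (1.00%) between A485 and IHK-44, 1375 (11.0%) between dCBP and JQAD and 1601 (12.8%) between IHK-44 and JQAD, but 0 (0%) between A485 and dCBP and 0 (0%) between A485 and JQAD, where 1259 and 3612 genes had an unadjusted p under 0.05.

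Over all 4 pairs the transcripts of the targets and of a degrader's ligase receptor did not pass the test. In the 2 h libraries alone edgeR called EP300 but DESeq2 did not, as given below. CREBBP stood at 518, 622, 548 and 659 CPM with IHK-44 (1000 nM at 2 h and 6 h, then 100 nM at 2 h and 6 h) and at 583, 650.2, 590.3 and 639 CPM with dCBP. Its fitted difference, always IHK-44 minus dCBP, was -0.06 on the log2 scale (95% interval -0.22 to 0.09). EP300 gave -0.08 (-0.30 to 0.13), and CRBN, the substrate receptor of the cereblon ubiquitin ligase that many degraders recruit, gave 0.21 (-0.05 to 0.48). These are transcript levels and say nothing of protein.

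**Figure D1:**
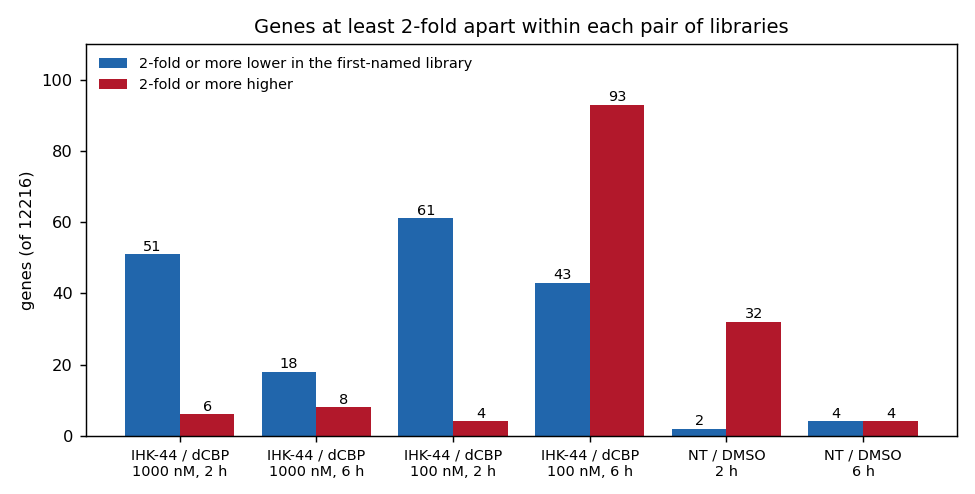
Number of genes (y axis, of 12216 with a mean of at least 1 CPM) that were at least 2-fold lower (blue) or higher (red) with IHK-44 than with dCBP in each pair, with NT over DMSO at 2 h and 6 h at the right; each bar compares 1 library with 1 library. Lower genes outnumber higher ones in 3 pairs, and the 100 nM, 6 h pair is the exception with 93 higher and 43 lower.

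Pair by pair, few genes were far apart and they were mostly not the same ones. At least 2-fold differences on the ratio scale numbered 57 at 1000 nM and 2 h, 26 at 1000 nM and 6 h, 65 at 100 nM and 2 h and 136 at 100 nM and 6 h, against 34 between NT and DMSO at 2 h and 8 at 6 h. The plot of 2-fold counts shows that IHK-44 was the lower library for most of them, with 51, 18 and 61 lower against 6, 8 and 4 higher in the first 3 pairs. The 2 h pairs shared 14 of their lower genes, 27.5% of the 51 and 23.0% of the 61. The 6 h pairs shared 2 of 18 and 43. No gene was at least 1.5-fold apart in the same direction in all 4 pairs (0%), 28 were at least 1.25-fold apart, 3 of them higher and 25 lower, and a ratio of the same sign in all 4 was found for 1027 higher genes (8.41%) and 1075 lower ones (8.80%).

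Among the genes lower with IHK-44 in every pair, ARID5A, an RNA- and DNA-binding regulator, had the largest smallest difference. It stood at 43.5, 18.9, 39.3 and 20.1 CPM with dCBP and 24.1, 12.5, 26.7 and 12.3 CPM with IHK-44, so it was lower at 6 h than at 2 h with both and lower with IHK-44 in each pair. Its difference was -0.67 ± 0.10 (SE, as for every fitted difference here, 4 pairs, adjusted p 0.365 by edgeR, 0.00272 by DESeq2). RYR1, the calcium release channel of skeletal muscle, stood at 326, 103, 317 and 106 CPM with dCBP and 241, 69.2, 200.3 and 79.2 CPM with IHK-44. Its difference was -0.51 ± 0.07 (adjusted p 0.365 by edgeR, 8.69e-05 by DESeq2), and the 2 h levels of DMSO and NT, 199 and 322 CPM, were themselves as far apart as the compounds. Within 1000 nM, edgeR called RYR1 without but not with an offset for transcript length, both described below.

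GDF15, a secreted stress cytokine, was not called by either tool over all pairs. It stood at 7.17, 7.89, 6.11 and 8.36 CPM with dCBP and 3.42, 3.67, 4.15 and 3.75 CPM with IHK-44, against 12.4 and 11.2 CPM in DMSO. Every IHK-44 library was near 4 CPM and every dCBP library above 6. The gene was picked for its ratio in these same pairs, so this separation is not further evidence. The difference was -0.96 ± 0.17 (adjusted p 0.55 by edgeR). Other lower genes of this kind were SH3D21, NAPRT, GRAMD1B, PILRB, STYXL2, MAFG, TRIM74 and MROH6, with a smallest difference of at least 0.29 in each pair. MAFG, a small MAF protein that pairs with NRF2, stood at 73.2 to 98.2 CPM with dCBP and 58.4 to 71.6 CPM with IHK-44. TRIM74 and PILRB have near-identical relatives between which reads can be split, so their values are uncertain.

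**Figure D2:**
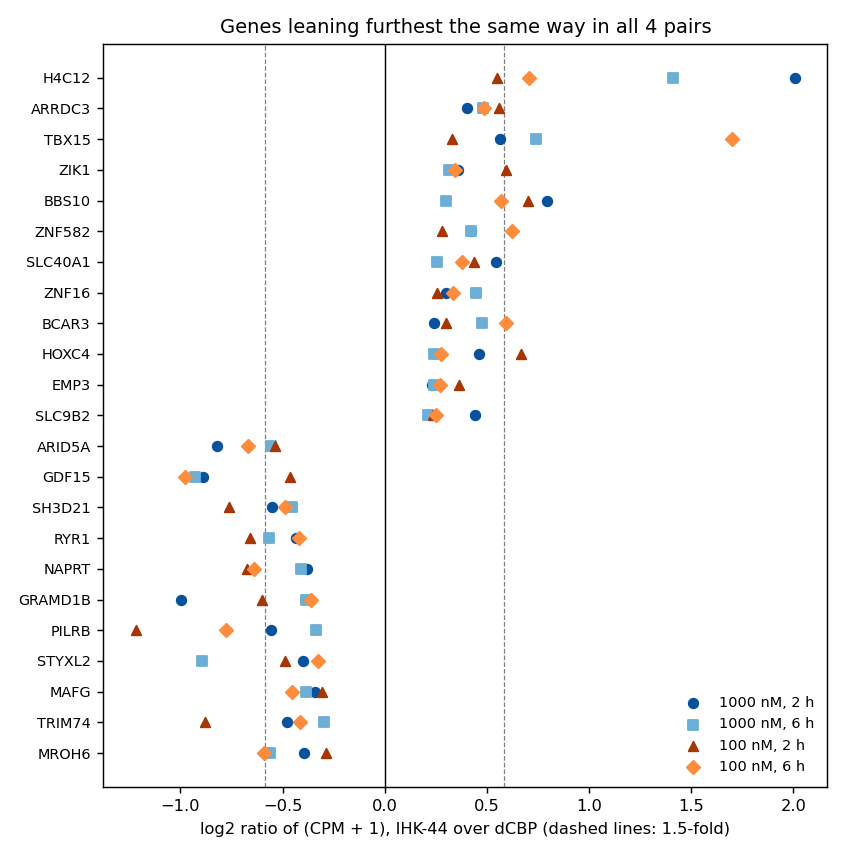
Log2 ratio of (CPM + 1), IHK-44 over dCBP (x axis), in each of the 4 pairs (symbols) for 12 higher and 11 lower genes chosen by the largest smallest ratio among genes with a mean of at least 5 CPM; dashed lines mark 1.5-fold. In each gene at least 1 pair falls inside the dashed lines, and TBX15 and H4C12 spread widely on the higher side.

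Among the genes higher with IHK-44 in every pair, H4C12, a histone H4 gene, had the largest smallest difference. It stood at 3.98, 4.14, 7.28 and 6.999 CPM with dCBP and 18.99, 12.7, 11.1 and 12.1 CPM with IHK-44, which is 54 to 99 and 169 to 256 reads. DESeq2 called it (difference 1.302 ± 0.25, adjusted p 0.00117) where edgeR did not (adjusted p 0.55). The histone H4 genes encode the same protein from very similar sequences between which reads can be split, so the value is uncertain. The histone list, which does not include H4C12, had none of its 17 tested genes with the same sign in all 4 pairs, beside 17.2% of all genes.

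TBX15, a T-box factor of skeletal and muscle development, was lowered by both compounds but less by IHK-44. It stood at 194 and 171 CPM in DMSO, at 62.9, 20.8, 83.7 and 21.9 CPM with dCBP and at 93.6, 35.4, 105.5 and 73.2 CPM with IHK-44. The gap was widest in the 100 nM, 6 h pair, and the difference over all pairs was 0.85 ± 0.19 (adjusted p 0.657). ARRDC3, an arrestin-like regulator of receptor traffic, was at 27.1, 32.4, 20.7 and 21.03 CPM with dCBP and 36.1, 45.5, 31.0 and 29.8 CPM with IHK-44 (difference 0.51 ± 0.09, adjusted p 0.55). DMSO and NT libraries ranged from 31.0 to 66.6 CPM for it, wider than either compound. The others were ZIK1, BBS10, ZNF582, SLC40A1, ZNF16, BCAR3, HOXC4, EMP3 and SLC9B2, each by at least 0.21 in its closest pair.

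Against the mean of DMSO and NT, the 24 genes were of several kinds. Among the 12 lower genes, 4 were above both compounds in the controls in all 4 pairs, ARID5A, GDF15 and STYXL2 among them, so IHK-44 was the library further from control. Among the 12 higher genes, ZIK1, ZNF582, HOXC4 and SLC9B2 were below both compounds in the controls in all 4 pairs, while TBX15 and BCAR3 were above both. The remaining 14 changed place between pairs.

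**Figure D3:**
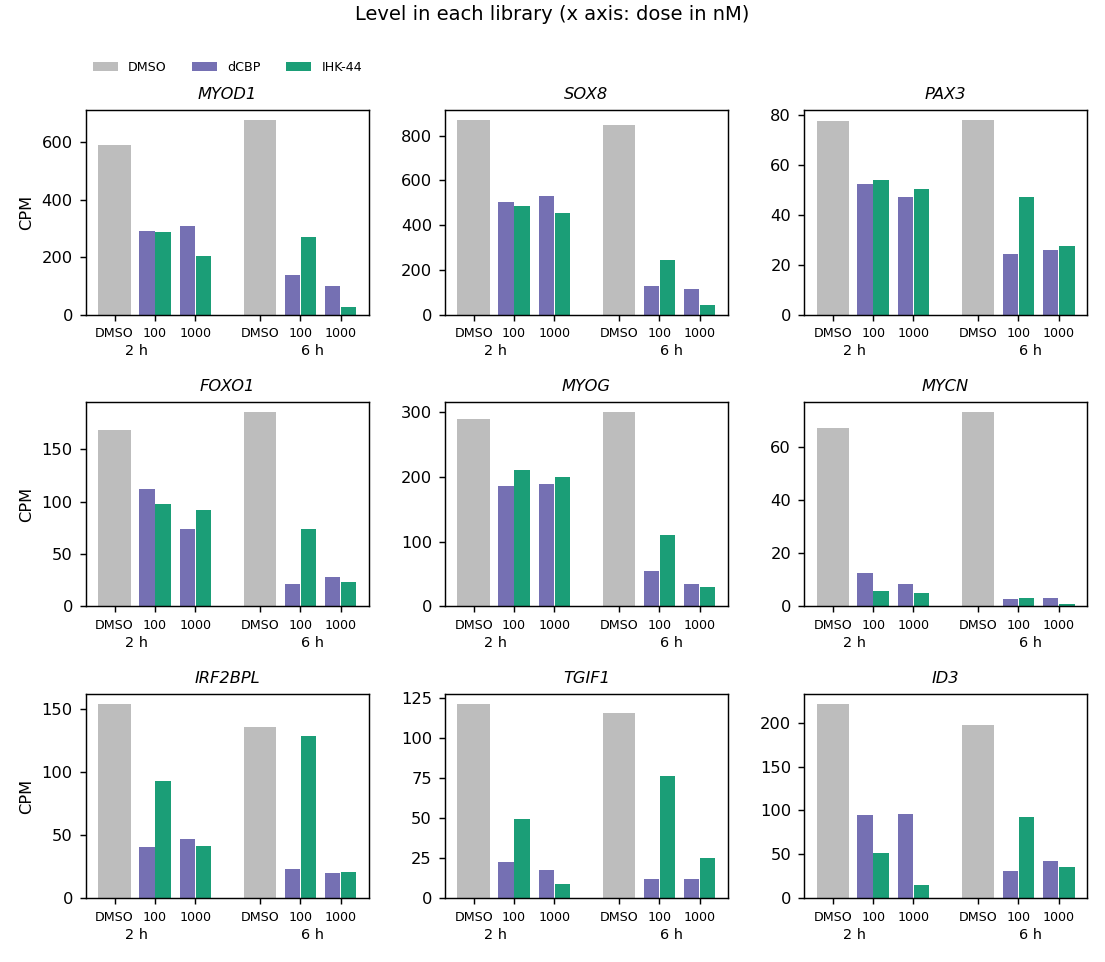
CPM (y axis) of 9 genes in DMSO (grey), dCBP (purple) and IHK-44 (green) at 100 and 1000 nM after 2 h and 6 h; each bar is 1 library. At 6 h the IHK-44 bar of MYOD1, SOX8, PAX3, FOXO1, MYOG, IRF2BPL, TGIF1 and ID3 is higher at 100 nM than at 1000 nM, while the dCBP bars of the 2 doses differ less.

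The core transcription factors did not separate the compounds the same way in all pairs: the order turned with dose at 6 h. MYOD1, the master regulator of the muscle lineage, stood at 677 CPM in DMSO at 6 h. At 1000 nM and 6 h it was at 101 CPM with dCBP and 27.2 CPM with IHK-44, and at 100 nM and 6 h at 136 CPM with dCBP and 270.1 CPM with IHK-44. IHK-44 was thus the lower library at the high dose and the higher one at the low dose. At 2 h its levels were 309 and 291 CPM with dCBP and 203 and 288 CPM with IHK-44, for 1000 and 100 nM.

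SOX8, a SOX factor that is very abundant in these cells, followed the same order. At 6 h it was at 847 CPM in DMSO, at 116 and 126 CPM with 1000 and 100 nM dCBP, and at 43.6 and 246 CPM with IHK-44. Over all pairs the differences were -0.33 ± 0.34 for MYOD1 (95% interval -1.09 to 0.44) and -0.15 ± 0.28 for SOX8 (-0.77 to 0.47), so the intervals span 0, and the 6 h pairs have opposite signs. The other factors were close together in 3 pairs and apart in the 100 nM, 6 h pair. There PAX3 stood at 24.2 CPM with dCBP and 46.9 with IHK-44, FOXO1 at 21.2 and 73.9, SIX4 at 12.2 and 37.6, EYA1 at 13.2 and 39.3 and MYOG at 54.5 and 110.6. PAX3 and FOXO1 reads include those of the fusion gene, which gene counts do not tell apart from the normal copies.

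As a list, the core factors (14 tested of 16) had a median ratio of 0.08, -0.17, 0.06 and 0.94 in the 4 pairs, beside 0.02, 0.00, -0.01 and -0.02 over all genes. EYA1 and PAX3 (14.3%) were higher with IHK-44 in all 4 pairs and MYC (7.14%) was lower, beside 8.41% and 8.80% of all genes. MYCN behaved apart from the list: it was at 8.57, 3.24, 12.6 and 2.69 CPM with dCBP and 5.05, 1.02, 5.93 and 3.33 CPM with IHK-44, from 67.1 and 73.2 CPM in DMSO. It was lower with IHK-44 in the first 3 pairs and close in the last, with a difference of -0.76 ± 0.26 (adjusted p 0.657). MYC was at 6.95, 1.47, 8.91 and 2.05 CPM with dCBP and 5.20, 1.26, 5.86 and 0.83 CPM with IHK-44 (-0.58 ± 0.21, adjusted p 0.657).

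The count of separating genes depended on the 100 nM, 6 h pair. Without it, edgeR called 115 genes, 108 of them (0.858% of those tested) lower with IHK-44 and 7 higher; leaving out any other pair gave 0. Of 107 of those lower genes with a ratio in the pair left out, 48 were below 0 there and 59 above. The calls included MYCN (-1.08 ± 0.20, adjusted p 0.0102), GDF15 (-0.92 ± 0.19, adjusted p 0.0255) and JUN, a subunit of AP-1 (-0.78 ± 0.12, adjusted p 0.00192). The called genes were long, with a median effective transcript length of 4874 bases against 3096 over all genes tested, and 31.3% against 2.76% were over 10000 bases.

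**Figure D4:**
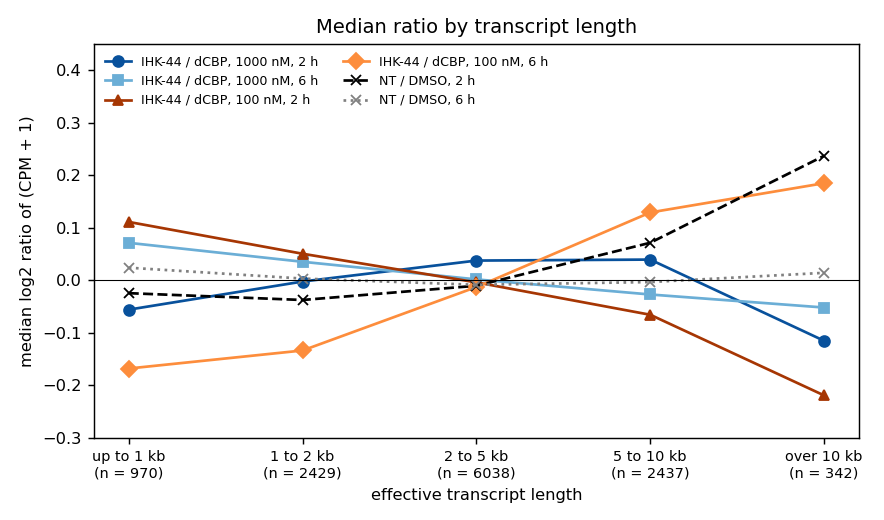
Median log2 ratio of (CPM + 1) (y axis) of genes in 5 bins of effective transcript length (x axis) for the 4 IHK-44 over dCBP pairs and for NT over DMSO. Genes over 10 kb sit at -0.12 and -0.22 in the 2 h pairs, at 0.18 in the 100 nM, 6 h pair and at 0.24 for NT over DMSO at 2 h.

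Length trends differed in sign between pairs, as the plot of medians by length shows. The 342 genes over 10 kb had a median ratio of -0.12 at 1000 nM and 2 h, -0.05 at 1000 nM and 6 h, -0.22 at 100 nM and 2 h and 0.18 at 100 nM and 6 h. Genes of up to 1000 bases gave -0.06, 0.07, 0.11 and -0.17. The controls also differed in this way at 2 h, where NT over DMSO gave 0.24 for genes over 10 kb, though only 0.01 at 6 h. An offset for length in the fits within 1 time or dose, chosen after the data were seen, had unlike effects, given with those fits.

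Fits within 1 time or dose rest on 2 pairs and 1 residual degree of freedom. Their SE and p-values draw on the spread of all genes, so they do not measure how far apart a gene's 2 pairs lie. They are read here beside the fit of all 8 libraries. Within 2 h, 302 genes passed, 275 lower with IHK-44 (2.18%) and 27 higher. Of these, 6 also passed as a contrast in the fit of 8 libraries: TTN, NEB, HRNR, FLRT1, KMT2D and TCF7, all lower. DESeq2 called 35 of the 302, all lower with IHK-44. With the offset for transcript length, edgeR called 333 genes, 283 of them lower, and 253 of the 302 remained.

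TTN, which encodes the giant sarcomere spring titin, was at 3536 and 3866 CPM with 1000 and 100 nM dCBP at 2 h and at 1116 and 1135 CPM with IHK-44 (-1.72 ± 0.09, adjusted p 6.87e-35 by edgeR). DMSO was at 908 CPM and NT at 2618 CPM at that time, so the IHK-44 libraries were near DMSO and the dCBP libraries above both controls. NEB, for the thin filament ruler nebulin, was at 897 and 952 CPM with dCBP, 455 and 480.0 CPM with IHK-44, 359.95 CPM in DMSO and 784 CPM in NT. By 6 h TTN was at 1274 and 654 CPM with dCBP and 1002 and 1107 CPM with IHK-44, and the pairs no longer leaned one way. Genes over 10 kb made up 70 of the lower calls, and 20.7% of the genes of that length were called in either direction against 1.03% of those up to 1000 bases. Of 257 lower genes with a mean of at least 1 CPM, 82 (31.9%) were also at least 1.5-fold higher in NT than in DMSO at 2 h, 30.0% of the 273 such genes and beside 2.23% of all genes.

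ID3, JUN and SPRY1, which have shorter transcripts, were also among the lower calls of edgeR at 2 h. DESeq2 called only SPRY1 of these 3, and none passed as a contrast in the fit of 8 libraries. ID3, an inhibitor of myogenic bHLH factors and a BMP target, was at 95.9 and 94.6 CPM with dCBP and 15.7 and 51.1 CPM with IHK-44, from 222 CPM in DMSO (-1.65 ± 0.13, adjusted p 3.75e-21 by edgeR). JUN was at 129.9 and 142 CPM with dCBP and 51.1 and 85.8 CPM with IHK-44, from 510.1 CPM in DMSO (-1.03 ± 0.09, adjusted p 1.54e-16). SPRY1, a feedback inhibitor of receptor tyrosine kinase signalling, was at 11.1 and 17.6 CPM with dCBP and 2.45 and 8.69 CPM with IHK-44, from 90.9 CPM in DMSO. These 3 genes were lower with IHK-44 at both doses, and by 6 h at 100 nM ID3, at 92.2 against 31.5 CPM, and SPRY1, at 17.3 against 6.16 CPM, were higher with it. EP300 itself, a gene of 8535 bases, was among the 2 h calls of edgeR (-0.30 ± 0.08, adjusted p 0.017). DESeq2 did not call it, and it did not pass as a contrast in the fit of 8 libraries.

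Within 6 h, 27 genes passed, 21 higher with IHK-44 (0.166%) and 6 lower. SAMD11 and PERCC1, both lower, also passed as a contrast in the fit of 8 libraries. DESeq2 called 4 of the 27, CCN1, SAMD11, TBX15 and PERCC1, and with the length offset all 27 remained among 35 calls. SAMD11 was at 37.9 and 48.0 CPM with 1000 and 100 nM dCBP and at 10.2 and 16.5 CPM with IHK-44, from 74.3 CPM in DMSO (-1.70 ± 0.22, adjusted p 1.23e-10). PERCC1 was at 22.9 and 48.9 CPM with dCBP and 9.26 and 22.9 CPM with IHK-44, from 106 CPM in DMSO. Both were further from DMSO with IHK-44 at each dose, and at 2 h SAMD11 stood at 79.3 and 68.1 CPM with dCBP and 58.9 and 61.8 CPM with IHK-44. EGR1, an immediate early zinc finger factor, was at 24.6 and 32.9 CPM with dCBP and 19.3 and 9.29 CPM with IHK-44, and at 5.03 CPM in DMSO.

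The higher genes at 6 h included CCN1, a matricellular YAP target, SNAI2, a mesenchymal repressor, and TGIF1 and NOG, both restraints on TGF-beta or BMP signalling. CCN1 was at 52.4 and 54.9 CPM with dCBP and 131 and 232 CPM with IHK-44, from 265 CPM in DMSO (1.72 ± 0.21, adjusted p 8.67e-13). TGIF1 was at 12.3 and 11.8 CPM with dCBP and 25.0 and 76.3 CPM with IHK-44, from 115 CPM in DMSO. SNAI2 was at 15.5 and 11.1 CPM with dCBP and 23.8 and 88.8 CPM with IHK-44, from 101 CPM in DMSO. In all 3 the IHK-44 libraries were nearer to DMSO, most of all at 100 nM. At 1000 nM and 2 h the order was the other way, with CCN1 at 107.5 CPM with dCBP and 54.7 with IHK-44, TGIF1 at 17.5 and 8.84, and SNAI2 at 32.5 and 11.7.

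Within 100 nM, 20 genes passed, 19 higher with IHK-44 (0.150%), and none as a contrast in the fit of 8 libraries. DESeq2 called 1 of the 20, IRF2BPL, and with the length offset all 20 remained among 30 calls. IRF2BPL, a transcription regulator, was at 40.8 and 23.5 CPM with dCBP at 2 h and 6 h and at 93.2 and 129 CPM with IHK-44, beside 154 and 136 CPM in DMSO (1.85 ± 0.25, adjusted p 5.28e-10). At 1000 nM it was at 47.2 and 20.0 CPM with dCBP and 41.3 and 20.8 CPM with IHK-44, so the compounds were alike at the high dose and far apart at the low one. Its dose term was -1.91 by DESeq2 (adjusted p 0.00183) and -1.93 by edgeR (adjusted p 1). NOG, MSTN, TGIF1, SNAI2 and CCN1 were among the same 19 genes, and MSTN, which encodes the muscle growth inhibitor myostatin, was at 34.9 CPM with dCBP and 212 with IHK-44 at 100 nM and 6 h. The 1 lower gene was H3C14, a histone H3 gene with near-identical copies.

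Within 1000 nM, 114 genes passed, 102 lower with IHK-44 (0.804%) and 12 higher, of which H4C12 alone passed as a contrast in the fit of 8 libraries. MYOD1 (-1.17 ± 0.09, adjusted p 1.82e-36), SOX8 (-0.76 ± 0.08, adjusted p 3.71e-16) and the cytokine receptor gene IL21R (-1.01 ± 0.11, adjusted p 6.52e-17) were among the lower genes. IL21R was at 25.5 CPM with dCBP and 5.51 with IHK-44 at 6 h, from 224 CPM in DMSO. DESeq2 called 3 of the 114 genes, with MYOD1, SOX8 and IL21R not among them, and the offset for transcript length left 10, which include MYOD1 but not SOX8 or IL21R. Whether the difference depends on time or dose was also tested directly in all 8 libraries: edgeR called 0 genes (0%) for time, with 554 at an unadjusted p under 0.05, and 0 (0%) for dose, with 104. DESeq2 called 4 for time, FOXF1, NEB, MN1 and SAMD11, and 1 for dose, IRF2BPL.

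**Figure D5:**
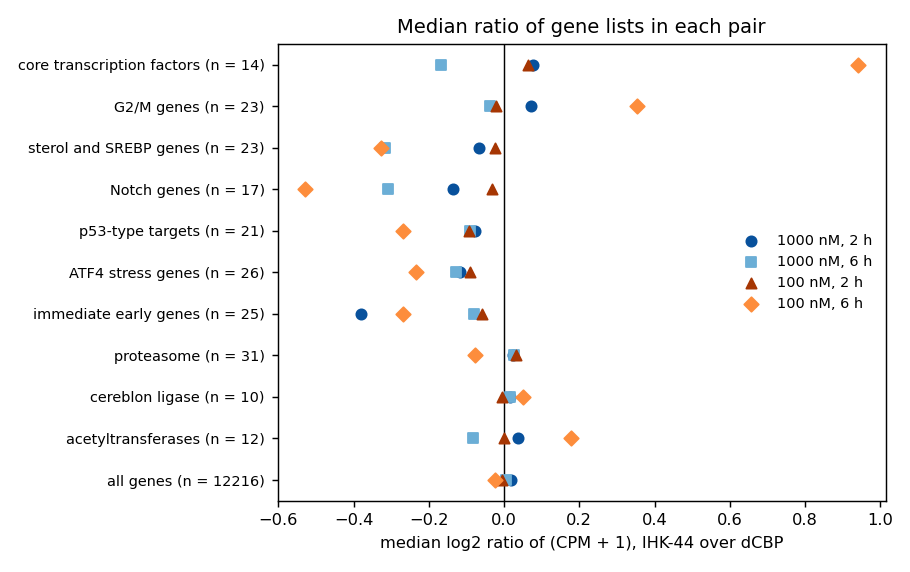
Median log2 ratio of (CPM + 1), IHK-44 over dCBP (x axis), of 10 gene lists and of all genes in each of the 4 pairs (symbols). Sterol, Notch, p53-type, ATF4 and immediate early lists sit at or below 0 in all 4 pairs, and the core factors reach 0.94 in the 100 nM, 6 h pair.

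Several gene groups leaned lower with IHK-44 in all 4 pairs although none of their members passed edgeR's test over all pairs. The lists were chosen with earlier results of these data known, and some share members. Their shares below are counts without a set test and are not independent evidence. Of 23 tested sterol and SREBP genes, which supply cholesterol and fatty acids, 0 passed and 9 (39.1%) were lower in every pair, beside 8.80% of all genes, among them HMGCS1, MVK, IDI1, LSS, MSMO1, INSIG1 and FASN. None was higher in every pair. The medians were -0.07, -0.32, -0.02 and -0.33, so the list was lower mainly at 6 h. FASN, the fatty acid synthase, was at 988, 862, 910.0 and 1082 CPM with dCBP and 807, 691, 817 and 716 CPM with IHK-44 (-0.33 ± 0.08, adjusted p 0.657). MSMO1, a C4 sterol oxidase, was at 35.3, 63.0, 41.8 and 34.3 CPM with dCBP and 24.7, 31.7, 30.0 and 33.0 CPM with IHK-44 (-0.50 ± 0.14, adjusted p 0.657). Without the 100 nM, 6 h pair, 4 members passed, all lower, among them MSMO1, IDI1 and FASN, beside 0.858% of all genes tested. Such calls were not particular to this list. The BMP and TGF-beta response genes also had 4 lower there, and the p53-type targets and the sarcomere genes 3 each.

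Stress and growth-arrest genes leaned the same way. Of 26 ATF4 stress genes with a mean of at least 1 CPM, 9 (34.6%) were lower with IHK-44 in every pair and 0 higher, with medians of -0.12, -0.13, -0.09 and -0.23. DDIT3, the pro-apoptotic factor CHOP, was at 15.2, 18.5, 16.7 and 22.4 CPM with dCBP and 12.9, 14.5, 8.76 and 15.9 CPM with IHK-44, above the 8.82 and 10.1 CPM of DMSO in all but 1 library (-0.49 ± 0.13, adjusted p 0.657). ATF4 itself was at 278 to 345 CPM with dCBP and 288 to 346 with IHK-44. Of 21 p53-type targets, 7 (33.3%) were lower in every pair and 0 higher: CDKN1A, BTG2, PLK3, GDF15, SESN2, TP53I3 and GADD45A. BTG2, an antiproliferative gene, was at 18.2 to 20.8 CPM with dCBP and 13.2 to 15.1 with IHK-44, against 70.8 and 64.2 CPM in DMSO (-0.42 ± 0.11, adjusted p 0.657). GDF15 and SESN2 stand in both lists.

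Immediate early genes, the first to answer growth factor and stress signals, counted 8 of 25 (32%) lower in every pair and 1 higher, BTG1. The lower ones were FOS, FOSL1, FOSL2, IER2, IER3, NR4A1, MYC and BTG2. IER2 was at 33.9, 30.2, 25.7 and 40.3 CPM with dCBP and 25.8, 24.7, 23.4 and 17.6 CPM with IHK-44 (-0.49 ± 0.16, adjusted p 0.657), and the groups overlapped by 1 library. Of 17 Notch genes, 5 (29.4%) were lower in every pair and 0 higher, with medians of -0.14, -0.31, -0.03 and -0.53. NOTCH1, a receptor, was at 183, 98.1, 169 and 108 CPM with dCBP and 155, 74.6, 153 and 67.9 CPM with IHK-44, and its target HES1 was at 5.99, 3.10, 6.92 and 3.19 CPM with dCBP and 1.63, 2.35, 3.69 and 2.56 CPM with IHK-44.

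Other groups showed little difference or turned with the pair. The proteasome list (31 genes) had medians of 0.02, 0.03, 0.03 and -0.08. In every pair 0 members were lower and 2 (6.45%) higher, beside 8.80% and 8.41% of all genes. Cereblon ligase components (10 genes) gave 0.01, 0.02, -0.01 and 0.05, and 23 G2/M genes gave 0.07, -0.04, -0.02 and 0.35. In the 100 nM, 6 h pair CDK1, the mitotic kinase, was at 51.3 CPM with dCBP and 103 with IHK-44 and CENPE, a kinetochore motor, at 108 and 225, while at 1000 nM and 6 h they were at 105 and 106 and at 213 and 218. BMP and TGF-beta response genes (17) had 1 member lower and 2 higher in every pair, and sarcomere genes (23) had 3 each way.

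The size of the response against DMSO did not separate the compounds in all pairs either. Genes at least 2-fold lower than DMSO numbered 194, 754, 155 and 849 with dCBP and 207, 825, 167 and 727 with IHK-44. The difference averaged -6.5 ± 81.8 genes (SD, n = 4 pairs, exact two-sided sign-flip p = 1, where 4 pairs allow no p below 1 in 8). Genes at least 2-fold higher numbered 217, 637, 178 and 781 with dCBP and 125, 674, 34 and 369 with IHK-44, a difference of -152.8 ± 188.8 (SD, n = 4 pairs, exact p = 0.25). IHK-44 had fewer higher genes in 3 of 4 pairs, and both compounds are set against the same DMSO library at each time.

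Genes that A485, an inhibitor of CBP/p300 catalysis, lowered at least 2-fold at 1000 nM at both times offered a set chosen without either compound. These 121 genes had a median ratio of -0.05, -0.24, -0.03 and 0.04 in the 4 pairs (mean -0.07 ± 0.12, SD, n = 4 pairs, exact two-sided sign-flip p = 0.375). At 1000 nM and 6 h 79.3% of them were lower with IHK-44, and in the other pairs 54.5%, 52.9% and 44.6%. Of the 121, 16 were lower with IHK-44 in every pair and 4 higher, beside 1075 (8.80%) and 1027 (8.41%) of all 12216 genes. Of 55 genes that A485 raised in the same way, 8 were lower and 2 higher in every pair. The lowered and the raised set thus both held more lower than higher genes.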

How the data were processed

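Total RNA from RH4 cells was sequenced. Per the file headers, each deposited table holds expected counts, TPM, FPKM and a normalized count per coding gene, which matched CPM of the coding rows. The submitters' processing notes list STAR 2.5.3a, RSEM 1.3.3 and hg38 without roles. TPM was used only as an alternative scale; the authors' deposited FPKM and lengths gave the share of reads outside the coding rows. Expected counts, 88.2% of them whole within 1e-06, were rounded and tested with edgeR 4.0.16 (TMM, filterByExpr, quasi-likelihood, Benjamini-Hochberg), with DESeq2 1.42.0 and limma 3.58.1 as alternatives. The design had a dose-time block, since by the labels a pair shares dose and time. Ratios used CPM + 1 and a mean of at least 1 CPM. The fits were also run on simulated counts, which had less spread than these data, so that run does not tell how they perform here. Named genes were 11 fixed genes, the 12 per direction with the largest smallest ratio (mean of at least 5 CPM), and up to 4 per list with the largest difference; other names were chosen after their values were seen. Members and lists were chosen with earlier results of these data known. Some genes the rule names are not reported here. ChIP-seq and ChRO-seq samples were not analysed here.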

Additional observations from a re-analysis of the deposited data

Results flagged for a closer look

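In the gene and list values over the 4 pairs and the read shares over 4 libraries, 43 groups of 4 were looked at for a single value far from the others, and 4 were found; chance gives about 1 in 20. The ratio of PAX3 was 0.926 in the 100 nM, 6 h pair and close to 0 in the others. The ratio of ZIK1 was 0.592 in the 100 nM, 2 h pair, that of SLC9B2 0.443 in the 1000 nM, 2 h pair, and the median of the p53-type targets -0.268 in the 100 nM, 6 h pair. The difference between compounds depended on time by DESeq2, though not by edgeR, for FOXF1 (6 h minus 2 h, log2 1.81), NEB (1.01), MN1 (-1.34) and SAMD11 (-1.44), and on dose for IRF2BPL (1000 nM minus 100 nM, -1.91). Reads outside the coding genes, which no comparison used, averaged 8.89% with IHK-44 and 9.44% with dCBP, against 6.10% in the 4 control libraries.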

How the results depend on the processing

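The count of 0 genes over all pairs held under RLE scaling, library size alone, a mean of at least 5 CPM, limma, no replicate block (0 genes without the dose-time pair), additive dose and time, 16 or 20 libraries and the added length offset. It was 4 with DESeq2, 1 with no filter and 0 to 115 when a pair was left out (115 without the 100 nM, 6 h pair). The time count was 4 with DESeq2 and 12 to 1630 with a pair left out, the dose count 1 and 10 to 1417; those fits have 1 residual degree of freedom. The alternatives within a time or dose were chosen after seeing the data: within 2 h DESeq2 called 35 and the contrast of 8 libraries 6, within 6 h 4 and 2, within 1000 nM 3 and 1 (61 with RLE scaling, 10 with the length offset), and within 100 nM 1 and 0. Genes 1.5-fold apart in every pair numbered 6 with a pseudocount of 0.1, 1 by TPM and 1 to 13 with a pair left out. The mean difference in lowered genes turned to 12.25 against NT, 2.25 with a pseudocount of 0.1 and 15.5 after centring. With a pair left out the difference ranged from -0.038 to 0.612 for FOXO1 and from -0.140 to 0.014 for FGFR4, turning sign without the 100 nM, 6 h pair, and from -0.744 to 0.108 for MYOD1 and -0.500 to 0.212 for SOX8, turning without the 1000 nM, 6 h pair; the causes were not tested. With 1 library per dose and time, the spread within a condition was not measured.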

Other observations

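In further gene groups 0 members passed edgeR's test over the 4 pairs, and their shares lower or higher with IHK-44 in every pair stand beside 8.80% and 8.41% of all genes. Of 20 BET and P-TEFb genes, which read acetylated chromatin and release paused RNA polymerase II, 5 (25%) were lower in every pair and 2 higher, with medians of -0.04, -0.02, -0.07 and 0.03. Of 14 NRF2 targets, genes of the antioxidant response, 3 (21.4%) were lower in every pair and 0 higher. Of 15 YAP and TEAD targets, 3 (20%) were lower in every pair and 0 higher. In the fits within 1 time or dose, edgeR called 1 of these 15 lower within 2 h, beside 2.18% of all genes. It called 2 lower within 1000 nM, beside 0.804%. There was 1 higher within 6 h, beside 0.166%, and 1 within 100 nM, beside 0.150%. Heat shock genes (21) had 1 lower and 2 higher in every pair, and ribosome biogenesis genes (31) had 2 lower and 4 higher. The 12 acetyltransferase genes had 0 lower and 1 higher, with medians of 0.04, -0.08, -0.00094 and 0.18.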
